A study of Arabidopsis thaliana with 24 samples.

Results

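Root messenger RNAs of Arabidopsis plants exposed to salt were compared with those of roots kept in control solution, using chemical probing of RNA structure in the living tissue. Of the 8956 gene loci in the study's table of reactivity, 8891 entered the comparison. They were chosen by taking the lowest-numbered isoform of each locus and keeping loci whose mean reactivity, averaged over both root conditions, was at least 0.1. The minimum left out 65 loci. The locus just inside it, AT2G12280, had a mean reactivity of 0.105 with salt and 0.0963 in control, and the locus just outside it, AT1G22230, had 0.106 with salt and 0.0936 in control.

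The salt group was root of Col-0, the standard laboratory accession, from hydroponically grown 24-day-old plants that received 100 mM NaCl for 48 h. The control group was root of Col-0 plants of the same age and culture, left in the original nutrient solution without added NaCl. No transgene or mutation was involved. Each group had 3 libraries treated with dimethyl sulfate (DMS) at 0.75% for 5 min and 3 libraries without DMS, and each library held root tissue pooled from about 40 plants. Whole roots were used, so all root cell types were mixed. The deposited table gives 1 value per transcript and condition, combined by the authors over the libraries. There was therefore no spread between replicates, no test was possible, and the differences below are descriptions of pooled values. The number of reads behind each value is unknown, and the number of transcripts in a sample is not part of the table.

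DMS methylates adenines and cytosines that are not base-paired, and reverse transcriptase stops at the methylated base. High reactivity thus marks bases that are open to the reagent, and low reactivity marks bases that are paired or covered by protein. The Gini index describes how unevenly reactivity is spread along a transcript: a high index means that a few bases carry most of it, as when most of the molecule is folded. Roots meet salt first, and their known responses include abscisic acid signalling, osmolyte synthesis, sodium export and changes of water channels.

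Reactivity was slightly higher with salt in most root transcripts. The median of mean reactivity was 0.211 in salt-treated root and 0.199 in control root, and the median log2 ratio of salt over control was 0.09. Of all loci compared, 80.1% had a log2 ratio above 0 and 19.9% had one below 0, a split that centring on the median sets to 50.0%. The spread was narrow, with 91.3% of loci between -0.25 and 0.25, the 5th percentile at -0.11 and the 95th percentile at 0.27. Differences of 1.5-fold were few, and more of them were lower than higher. A ratio of at least 1.5-fold was found for 9 loci (0.101% of those compared) in the higher direction and for 38 loci (0.427%) in the lower direction. The balance depended on the limit: past a log2 ratio of 0.32 in size, 223 loci were higher and 94 lower. With a pseudocount of 0.1, 1 locus was higher and 17 lower by at least 1.5-fold. At the edge of this limit, ACR9 was just past it at a log2 ratio of 0.59 and SIP2 just short of it at 0.56. On the lower side AT1G55710 was just past it at -0.59, and ERF2 just short of it at -0.57.

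The other summaries of reactivity moved the same way across the table. The median Gini index was 0.687 with salt and 0.678 in control, and 66.1% of loci had a higher index with salt. The standard deviation of reactivity along the transcript was higher with salt at 83.0% of loci, with a median difference of 0.0230. The highest reactivity on a transcript was higher with salt at 70.5% of loci, with medians of 1.39 with salt and 1.28 in control. A higher mean together with a higher Gini index was the commonest combination, at 53.9% of loci. A higher mean with a lower index was found at 26.2%, a lower mean with a higher index at 12.2%, and both lower at 7.73%. Reactivity in the table does not exceed 7, and 7 compared loci reached this value with salt, against 22 in control. All 7 were among those 22.

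**Figure D1:**
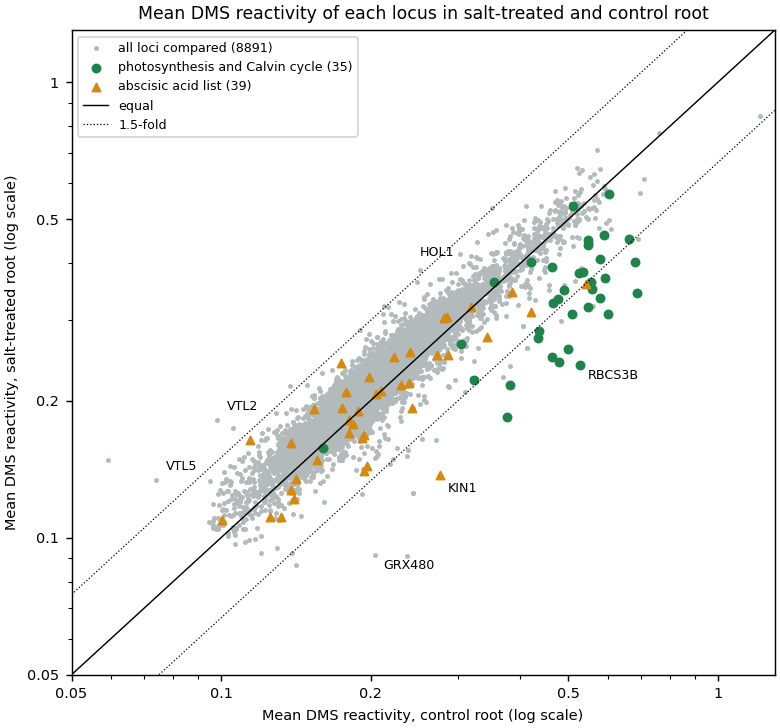
Mean DMS reactivity of each of the 8891 loci in salt-treated root (vertical axis, log scale) and in control root (horizontal axis, log scale), with 1 pooled value per condition and no error bars. The solid line marks equal values and the dotted lines 1.5-fold. Photosynthesis transcripts lie mostly below the solid line, with RBCS3B at 0.239 with salt and 0.526 in control. VTL2 and VTL5, with control values below 0.1, lie above the upper dotted line.

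The lower and higher loci past 1.5-fold differed in level and in Gini index, while the median index of each set changed little with salt. The 38 lower loci had a median mean reactivity of 0.246 with salt and 0.424 in control, well above the medians of all loci. Their median Gini index was 0.779 with salt and 0.781 in control, and their median highest reactivity was 2.70 with salt and 4.85 in control. In 8 of the 38, the highest reactivity in control stood at the upper limit of 7. AT1G20015, GRX480, AT4G23680 and AT1G55710 had salt values below 0.1, so they passed the minimum through their control values. The standard deviation was lower with salt in all 38, the highest reactivity in 37, and the Gini index in 22. The 9 higher loci had a median mean reactivity of 0.216 with salt and 0.138 in control, and a standard deviation that was higher with salt in all 9. Their median Gini index was 0.683 with salt and 0.676 in control, and it was higher with salt in 5. Where a profile keeps its shape, its standard deviation and highest value scale with the mean, so these counts are not separate from the selection on the mean. Of the 38 lower loci, 17 were on the lists of photosystem or Calvin cycle genes, 4 were chloroplast-encoded, and 17 were on none of these. The chloroplast-encoded loci were identical pairs, ATCG00960 with ATCG01170 and ATCG00950 with ATCG01180. The lists may be incomplete, so absence from them does not mean that a gene has no part in photosynthesis.

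Transcripts for the photosynthetic apparatus made up the group with the lowest salt ratios. All 26 compared members of the list of photosystem, antenna and electron transport proteins had a log2 ratio below 0, against 19.9% of all loci, and 15 were lower by at least 1.5-fold, against 0.427% of all loci. Their median log2 ratio was -0.64, their lowest -0.997 for LHCB1.5 and their highest -0.24. Mean reactivity had a median of 0.339 with salt and 0.536 in control over these 26 transcripts. These genes serve the green tissues of the plant. All 7 of the fixed shoot markers were compared in root, where every locus compared also had a shoot value. In whole roots, a change of reactivity in every cell and a change in the share of cell types that express a gene cannot be told apart.

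By role, the light-harvesting antenna had the lowest median. The 9 antenna transcripts, which encode the chlorophyll-binding proteins that feed light energy to the reaction centres, had a median log2 ratio of -0.76, and 6 of them were lower by at least 1.5-fold. LHCB1.5 had a mean reactivity of 0.344 with salt and 0.686 in control. LHCB1.2 had 0.310 with salt and 0.600 in control, and LHCB1.3 had 0.250 with salt and 0.463 in control. These LHCB1 genes are near-identical copies, so reads could have been split between them and their values are not independent. LHCB6 and LHCA1 are more distinct antenna genes. LHCB6 had 0.402 with salt and 0.680 in control, and LHCA1 of photosystem I had 0.310 with salt and 0.509 in control. LHCA2, LHCA4 and LHCB4.1 had log2 ratios of -0.51, -0.51 and -0.35, above the medians of the photosystem II and photosystem I subunits. The rank of the antenna thus rests on the LHCB1 genes.

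The 6 photosystem II subunits had a median log2 ratio of -0.66. PSBTN, a small subunit of that complex, had a mean reactivity of 0.243 with salt and 0.479 in control, a log2 ratio of -0.98. The 6 photosystem I subunits had a median of -0.61, led by PSAO at 0.259 with salt and 0.499 in control and by PSAG at 0.216 with salt and 0.381 in control. PSAN, a lumenal subunit of photosystem I, had the smallest difference of the list, with 0.392 with salt and 0.463 in control. The remaining 5 members had a median of -0.47. Among them PETE2, which encodes plastocyanin, the copper protein that carries electrons to photosystem I, had 0.335 with salt and 0.579 in control. Ferredoxin, the electron acceptor of photosystem I encoded by FD2, had 0.450 with salt and 0.548 in control.

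**Figure D2:**
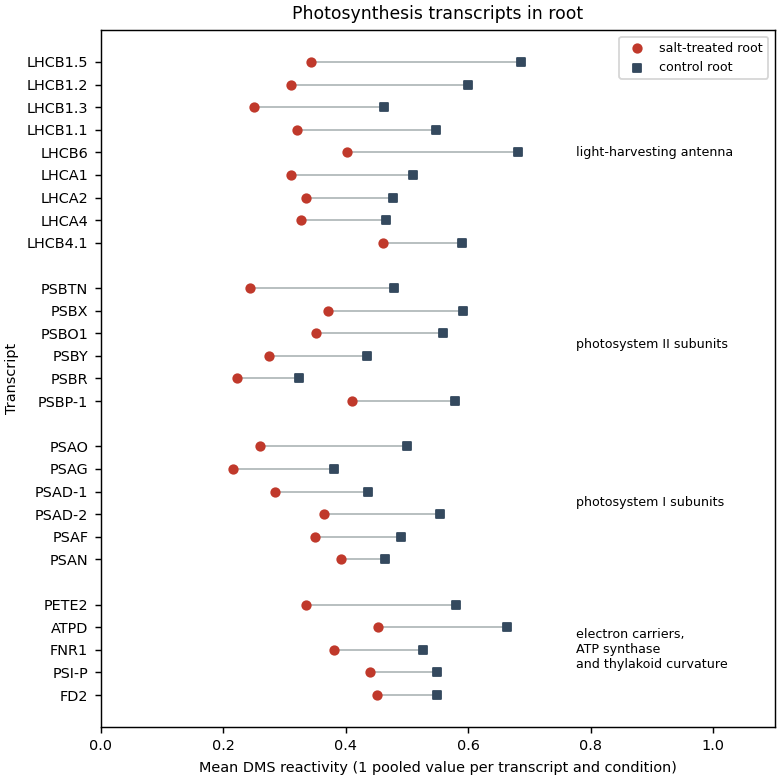
Mean DMS reactivity of 26 photosynthesis transcripts in salt-treated root (circles) and control root (squares), joined by a line for each transcript and grouped by role. Each point is 1 pooled value. The circle lies left of the square for every transcript, with LHCB1.5 at 0.344 with salt and 0.686 in control.

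The lower mean of the photosynthesis transcripts went with lower peaks. Where the Gini index changes little, a lower peak and standard deviation largely follow from a lower mean, so they are not a separate trait. The highest reactivity on the transcript was lower with salt in all 26, with medians of 3.23 with salt and 5.63 in control, and the standard deviation was lower in all 26. PSAO had a highest reactivity of 2.94 with salt and 7 in control, LHCB6 had 3.99 with salt and 7 in control, and LHCA1 had 3.26 with salt and 7 in control. Control values stood at 7 in 7 of the 26 transcripts, and salt values in none. The Gini index was high in both conditions, with medians of 0.798 with salt and 0.800 in control, and was higher with salt in 9 of 26 and lower in 17, against 66.1% higher and 33.9% lower of all loci. At the same loci in shoot, all 26 had a salt log2 ratio above 0, with a median of 0.13, against 37.4% of all compared loci above 0 and 62.6% below 0 in shoot.

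Carbon fixation transcripts were also low, and the small subunits of Rubisco were lowest among them. RBCS3B, a small subunit of Rubisco, had a mean reactivity of 0.239 with salt and 0.526 in control, and its highest reactivity was 3.39 with salt and 7 in control. RBCS1A, another small subunit gene, had 0.184 with salt and 0.376 in control. These genes are similar in sequence and could share reads. All 9 compared members of the Calvin cycle list were below the median of all loci. With 7 of 9 below 0, against 19.9% of all loci, the list had a median of -0.09. RCA, Rubisco activase, was at -0.48. CP12-1 and CP12-3, which hold enzymes of the cycle in an inactive complex in the dark, were at -0.19 and -0.02. The epimerase RPE was at -0.09, the transketolase TKL1 at -0.06, PDTPI, the plastid triose phosphate isomerase, at 0.04 and PGK1, a phosphoglycerate kinase, at 0.07.

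Chloroplast-encoded loci were mixed. Of 14 compared, 8 had a log2 ratio below 0, against 19.9% of all loci, and 6 above, with a median of -0.26. This median rested on identical pairs and on low values: it was -0.05 with identical values counted once and 0.01 with a minimum of 0.2. ATCG00960 and ATCG01170 had identical values, with a mean reactivity of 0.125 with salt and 0.243 in control. ATCG00900 and ATCG01240, also identical, were at the other end with 0.478 with salt and 0.398 in control. Identical pairs mean that the 14 loci hold 9 distinct sets of values. The RefSeq table does not name these loci, so genes for proteins and genes for ribosomal RNA are not told apart among them here. Lists of nuclear genes with other tasks in the plastid had medians nearer 0. The 14 for chlorophyll and haem synthesis had a median of 0.07 with 11 above 0. The 27 plastid and mitochondrial ribosomal proteins had a median of 0.12 with 22 above 0, from RPL12-A at -0.11 to RPL3P at 0.27. Both counts above 0 were near the 80.1% of all loci. Of the 4 chloroplast RNA-binding proteins 3 were below 0, against 19.9% of all loci, with values between -0.17 for RBP31 and 0.15 for CP31B.

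Abscisic acid is the hormone that closes stomata and switches on water-stress genes. It is bound by PYR/PYL receptors, which then block type 2C protein phosphatases and so release SnRK2 kinases that activate transcription factors. The list for its synthesis, signalling and response had 39 compared members with a median log2 ratio of -0.07. Of these, 17 were above 0, against 80.1% of all loci, and 2 were lower by at least 1.5-fold, against 0.427%. The 2 were KIN1 and KIN2, near-copies whose values are not independent if they shared reads. Roles were given to a part of the 39 members, so the groups by role below do not cover the whole list.

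All 5 compared receptors had a log2 ratio above 0, where 80.1% of all loci lay, with a median of 0.22. PYL4 had a mean reactivity of 0.242 with salt and 0.174 in control, and PYR1 had 0.192 with salt and 0.154 in control. PYL9 was at a log2 ratio of 0.22, PYL8 at 0.14 and PYL1 at 0.00, below the median of all loci. The 2 kinases, SNRK2.2 at 0.10 and SNRK2.3 at 0.18, were also above 0. All 5 phosphatases were below 0, against 19.9% of all loci, with a median of -0.13. PP2CA was lowest of these, with 0.192 with salt and 0.242 in control, followed by ABI1 at -0.22, HAB2 at -0.13, ABI2 at -0.12 and HAB1 at -0.07. The lowest receptor, PYL1, and the highest phosphatase, HAB1, lay close together.

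Of 11 transcription factors and their partners in the pathway, 8 were below 0, against 19.9% of all loci, and the median was -0.18. HB-12, a homeodomain factor, had 0.140 with salt and 0.194 in control. DREB2A, an activator of drought-responsive genes, had 0.144 with salt and 0.196 in control. Within the small family of ABI5-binding proteins, which restrain abscisic acid responses, AFP1, AFP2 and AFP3 were at -0.18, -0.18 and -0.25, whereas AFP4 was at 0.52, the highest of the whole list. AFP4 had a mean reactivity of 0.164 with salt and 0.114 in control.

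The 11 dehydrins and other response genes had a median of -0.11 with 6 below 0, against 19.9% of all loci. KIN1, which is induced by cold and by abscisic acid, had 0.137 with salt and 0.275 in control, the lowest ratio of the list. Its Gini index was 0.693 with salt and 0.820 in control, the largest decrease of the index among the loci compared. KIN2, its tandem neighbour and near-copy, had 0.361 with salt and 0.543 in control, and the pair could share reads. RD29A, a widely used marker of water-deficit signalling, had 0.313 with salt and 0.420 in control. The dehydrins proper, which protect membranes and proteins as cells lose water, lay closer to 0: ERD10 was at -0.11, COR47 at 0.01, ERD14 at 0.09 and LTI30 at 0.12. In shoot, LTI30 had a log2 ratio of -1.23 and all 11 of these genes were below 0, against 62.6% of all loci. The 5 phosphatases had a shoot median of -0.58 and the 5 receptors a shoot median of 0.10.

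**Figure D3:**
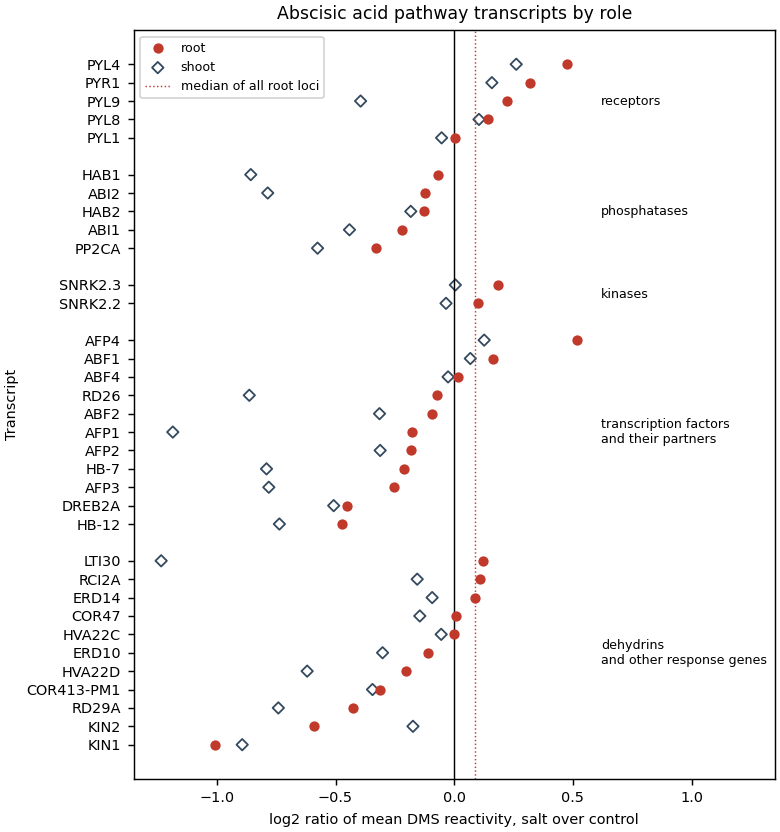
Log2 ratio of mean DMS reactivity, salt over control, for the 34 abscisic acid pathway transcripts that were given a role. Root values are filled circles and shoot values open diamonds, grouped by role, with 1 pooled ratio per point. The dotted line marks the median of all root loci, 0.09. Root receptors lie at or right of 0 and root phosphatases left of it.

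Several lists of stress and signalling genes had a smaller share of members above 0 than the 80.1% of all loci. The salicylic acid and glutaredoxin list had 7 of 15 members above 0 and a median of -0.01. GRX480, a glutaredoxin that interacts with TGA factors in salicylic acid signalling, had a mean reactivity of 0.0915 with salt and 0.204 in control. With a salt value below 0.1, GRX480 passed the minimum through its control value. Its highest reactivity was 0.495 with salt and 1.65 in control, and its Gini index was 0.651 with salt and 0.756 in control. WRKY46 had 0.156 with salt and 0.238 in control, at a median log2 ratio of 0.04 over the 21 compared WRKY factors. Of these, 11 were above 0 and 6 above the median of all loci, with WRKY54 highest at 0.18. ERF2, an ethylene response factor, had 0.208 with salt and 0.310 in control, and ERF6 had 0.153 with salt and 0.207 in control. The 24 genes of ethylene synthesis and signalling had 16 above 0 and a median of 0.06.

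Of 17 NAC factors, 8 were above 0, against 80.1% of all loci, and 5 above the median of all loci. The NAC median was -0.01. NAC102 had 0.151 with salt and 0.206 in control and ATAF2 had 0.198 with salt and 0.259 in control. Of 9 zinc finger regulators, 4 were above 0 and 2 above the median of all loci, with a median of -0.01. ZAT12 had 0.181 with salt and 0.230 in control and ZAT10 had 0.224 with salt and 0.263 in control. Among 28 heat shock proteins and chaperones, of which 18 were above 0, with a median of 0.06, HSP90.1 and HSP18.2, which are heat-inducible, were lowest at -0.41 and -0.31. HSC70-1, a cytosolic chaperone expressed without stress, was highest at 0.19. Across 15 glutathione S-transferases, 7 of them above 0, the median was -0.01, from GSTF7 with 0.165 with salt and 0.253 in control to GSTF9 with 0.304 with salt and 0.251 in control. In jasmonate signalling VSP2 had 0.149 with salt and 0.205 in control, at a list median of 0.01 over 21 genes, 12 of them above 0. Among 17 nuclear genes of mitochondrial respiration, 15 of them above 0, with a median of 0.14, the stress-induced alternative oxidase AOX1A was lowest at 0.176 with salt and 0.216 in control.

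The next 3 genes, all lower by at least 1.5-fold, were on none of the lists and were chosen after their values were seen. PSK4, which encodes a precursor of the growth peptide phytosulfokine, had 0.163 with salt and 0.271 in control. BCS1, a mitochondrial outer membrane protein, had 0.151 with salt and 0.236 in control, and RRTF1, a redox-responsive transcription factor, had 0.145 with salt and 0.219 in control. PCC1, a pathogen- and clock-controlled gene, had 0.299 with salt and 0.482 in control, with a Gini index of 0.866 with salt and 0.905 in control. LTP1, a lipid transfer protein of the cell surface, had 0.452 with salt and 0.690 in control, while its relative LTP2 had 0.204 with salt and 0.169 in control.

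Of the 9 loci higher by at least 1.5-fold, 3 were on a gene list: VTL2, VTL5 and HOL1. The locus with the highest ratio, AT2G47570, had a mean reactivity of 0.148 with salt and 0.0593 in control. Its Gini index of 0.979 with salt and 0.992 in control and its highest reactivity of 7 in both conditions mean that almost all of its reactivity sat on a very small number of bases. The next were 2 genes of the same family, the vacuolar iron transporter-like proteins, whose members move iron into the vacuole. VTL2 had 0.181 with salt and 0.0979 in control, and VTL5 had 0.134 with salt and 0.0739 in control. Both also had a higher Gini index with salt, 0.683 with salt against 0.614 in control for VTL2 and 0.586 with salt against 0.504 in control for VTL5. Neither was past 1.5-fold in shoot, with log2 ratios of 0.19 and 0.11. The control values of AT2G47570, VTL2 and VTL5 were below 0.1, so these loci passed the minimum through their salt values. They were below 0.2 in both conditions and so were not compared at a minimum of 0.2. With a pseudocount of 0.1, only 1 locus of all stayed higher by at least 1.5-fold.

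Other high loci carry no symbol in the RefSeq table. AT1G23205 had 0.216 with salt and 0.138 in control, AT3G52520 had 0.323 with salt and 0.213 in control, and AT5G62360 had 0.529 with salt and 0.351 in control, all past 1.5-fold. Just short of it, AT1G19240 had 0.217 with salt and 0.149 in control, and AT1G60010 had 0.328 with salt and 0.228 in control. Among the 15 lowest loci, AT1G09310 also has no symbol there, with 0.323 with salt and 0.561 in control.

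The other iron genes compared lay on both sides of the median of all loci, between -0.06 and 0.24, and none was past 1.5-fold. The ferritins FER1 and FER3, which store iron in plastids, were at 0.16 and 0.09. Only 7 of 39 listed genes of iron uptake and metal chelation were compared, so most of this system is not covered. These 7 had a median of 0.04. ZIP1, a metal transporter, was lowest at -0.06 and BGLU42, a glucosidase linked to the iron response of roots, highest at 0.24. BTS, an iron-regulated ubiquitin ligase, was at -0.04. Metallothioneins, small proteins that bind metal ions through cysteine, were all above 0, against 80.1% of all loci. Their list was added after values were seen. MT1A had 0.133 with salt and 0.0948 in control, MT2B had 0.392 with salt and 0.321 in control, MT2A had 0.421 with salt and 0.357 in control, and MT3 had 0.420 with salt and 0.397 in control.

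Genes of sugar and osmolyte metabolism stood at both ends. DIN10, which encodes a member of the raffinose synthase family, had 0.364 with salt and 0.248 in control. SIP2, of the same family, had 0.320 with salt and 0.217 in control. GOLS2, the galactinol synthase that makes the substrate of raffinose synthesis under drought and salt, was at the low end with 0.142 with salt and 0.193 in control. In proline metabolism, ERD5, the proline dehydrogenase of mitochondria, had 0.279 with salt and 0.198 in control, and was singled out after its value was seen. P5CDH, which catalyses the following step of proline breakdown, had 0.164 with salt and 0.217 in control. The synthesis genes P5CS2 and P5CR were nearer the middle at log2 ratios of 0.11 and 0.18. The list of 18 osmolyte genes had 15 above 0, near the 80.1% of all loci, and a median of 0.11.

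DIN10 belongs to the dark-inducible genes, which are expressed when sugar runs short. The other 2 compared members of a list of such genes added after values were seen were also above 0, with SEN1 at 0.327 with salt and 0.274 in control and BCE2 at 0.183 with salt and 0.142 in control. In shoot these 3 genes had log2 ratios of 0.63, 1.08 and 0.27. ACR9, a protein with ACT domain repeats, had 0.286 with salt and 0.190 in control. The sucrose transporter SUC1 had 0.191 with salt and 0.142 in control, and the amino acid permease AAP2 had 0.196 with salt and 0.153 in control. Both were the highest of 17 sugar and amino acid transporters, of which 16 were above 0, against 80.1% of all loci.

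Glucosinolates are sulfur-rich defence compounds of the cabbage family that are broken down when tissue is damaged. Of 28 compared genes for their synthesis and breakdown, 25 were above 0, against 80.1% of all loci. Of the 28, 20 were above the median of all loci, with a list median of 0.16. HOL1, a methyltransferase that acts on products of glucosinolate breakdown, had a mean reactivity of 0.387 with salt and 0.251 in control, past 1.5-fold. MAM1, which lengthens the methionine side chain of aliphatic glucosinolates, had 0.465 with salt and 0.345 in control. MYB28 and CYP83A1, a regulator and an oxidase of the aliphatic branch, had log2 ratios of 0.32 and 0.32. The regulator of the indolic branch, MYB34, and the sulfotransferase SOT16 were lowest at -0.07 and -0.07.

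The aquaporins compared, water channels of the plasma membrane and vacuole, were all above 0, against 80.1% of all loci. The 15 compared members, of 41 listed, had a median log2 ratio of 0.16, and 13 were above the median of all loci. TIP2;1 of the vacuolar membrane had 0.420 with salt and 0.303 in control, and PIP1;3 of the plasma membrane had 0.231 with salt and 0.177 in control. PIP1;4 and PIP1;2 were lowest at 0.06 and 0.07. The Gini index was lower with salt in 11 of the 15, against 33.9% of all loci. Members of the PIP families are similar enough that reads could be shared between some of them.

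The ion transporters compared, by contrast, were near 0 or near the median of all loci. The 12 compared genes for plasma membrane proton pumps and ion transport, of 40 listed, had a median of 0.02. Their range ran only between -0.07 and 0.21. The pumps AHA1 and AHA2 were at 0.09 and 0.03, and the vacuolar sodium exchanger NHX1 at 0.01. NHX5, its relative of the endosomes, and CAX2, a calcium exchanger, were highest at 0.21 and 0.21, and KUP2, a potassium transporter, was lowest at -0.07. The 11 vacuolar proton pump genes had a median of 0.08. Neither list had a member past 1.5-fold.

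Lists of basic cell functions are set here against the 80.1% of all loci above 0 and the median of 0.09. Of 38 histone genes, 37 were above 0 and 34 were above the median of all loci, with a median log2 ratio of 0.25. The H4 gene AT1G07820 had a mean reactivity of 0.307 with salt and 0.224 in control, and the H3.3 gene AT4G40040 had 0.303 with salt and 0.234 in control. The 1 histone below 0 was the linker histone HIS1-3, known to be induced by drought, at 0.232 with salt and 0.241 in control. Histone genes of a class are near-copies, and reads could be shared among them. Of 19 translation initiation and elongation factors, 18 were above 0, with a median of 0.16 and EIF2 BETA highest at 0.29. Of 100 genes for small GTPases and vesicle traffic, 86 were above 0 and 70 above the median of all loci, with RABG3B at 0.361 with salt and 0.264 in control and ROP2, which guides the growth of root hairs, at 0.268 with salt and 0.202 in control.

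Auxin genes had 25 of 26 members above 0 and a median of 0.14, with the repressors IAA13 and IAA17 highest at 0.33 and 0.24. Splicing factors had 27 of 30 above 0, with SR34 at 0.32 and SCL30 at 0.31. Proteasome subunits had 32 of 35 above 0 and a median of 0.11. The 67 calcium sensors and kinases had 54 above 0, about the share of all loci, with the calmodulin-like genes CML30 and CML38 highest at 0.43 and 0.42. Cell wall genes were close to the table as a whole, with 51 of 69 above 0 and a median of 0.08, PME3 and XTH9 being highest at 0.33 and 0.32. None of these lists had a member past 1.5-fold in either direction. Of all 52 lists, 41 had a median above 0 and 23 a median above that of all loci.

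**Figure D4:**
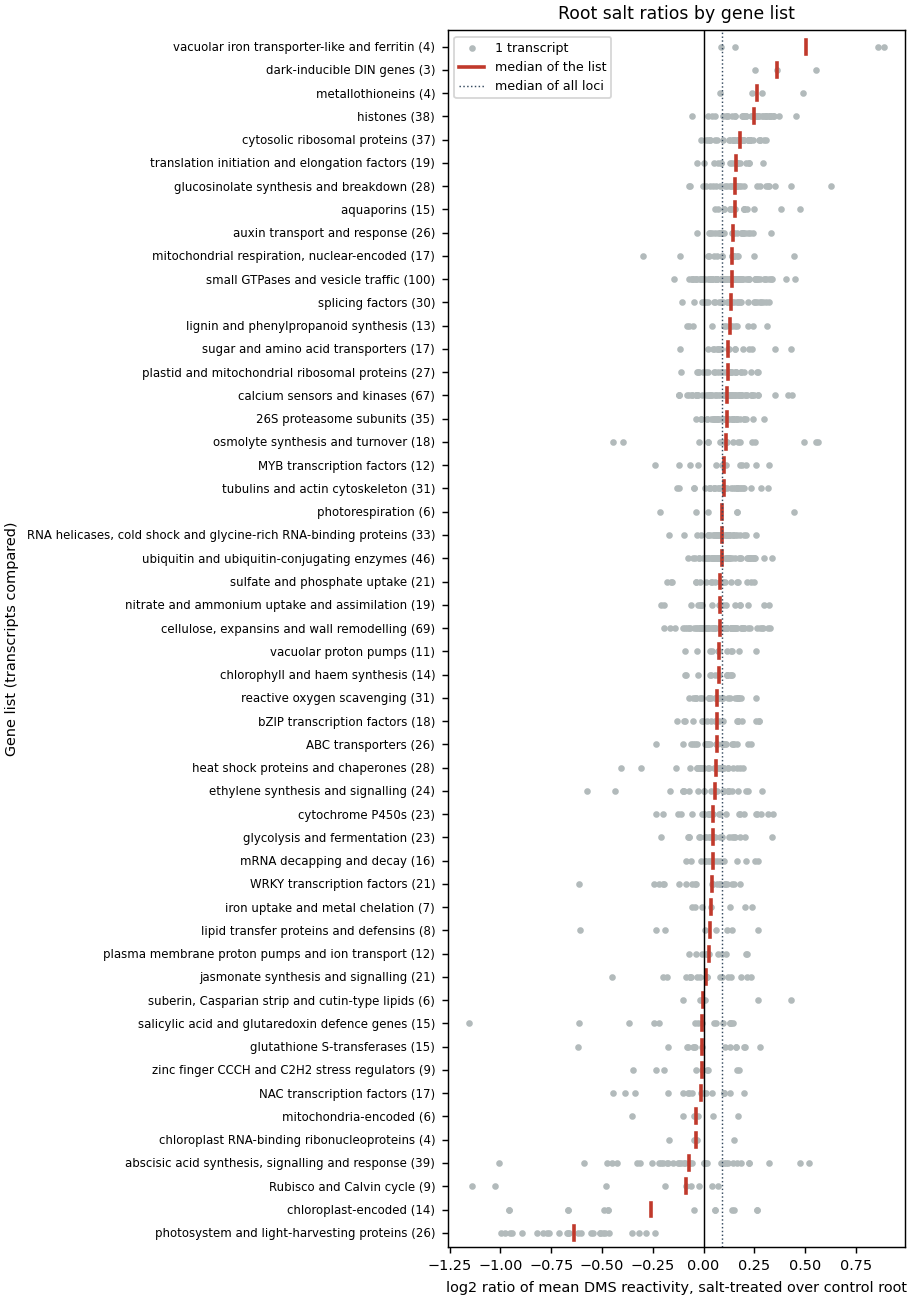
Log2 ratio of mean DMS reactivity, salt-treated over control root, for the members of 52 gene lists (grey points, 1 pooled ratio each), with the number of compared transcripts in brackets and the list median as a bar. The solid line marks 0 and the dotted line the median of all loci, 0.09. The photosystem list, with a median of -0.64, lies apart at the bottom. At the top is the small list of 4 vacuolar iron transporter-like and ferritin genes, with a median of 0.51. Of these, VTL2 and VTL5 had control values below 0.1.

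The Gini index differed most at loci with higher, lower and little-changed means. The largest increases of the Gini index were in AT1G23205, AT5G62360, PDF1, AT3G23109 and EID1. PDF1, a gene of the shoot epidermis, had an index of 0.725 with salt and 0.623 in control at a log2 ratio of the mean of 0.25. EID1, an F-box protein of light signalling, had 0.746 with salt and 0.647 in control at 0.22. The largest decreases were in KIN1, AT2G30230, EXPA11, GRX480 and AT4G23680. EXPA11, an expansin that loosens cell walls, had an index of 0.660 with salt and 0.768 in control at a log2 ratio of -0.08. AT2G30230 had 0.770 with salt and 0.881 in control while its mean was higher, 0.174 with salt and 0.106 in control.

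The highest reactivity and the standard deviation along the transcript had photosynthesis transcripts among their largest decreases. The 5 largest decreases of the highest value were in RBCS3B, PSAO, LHCB1.5, LHCA1 and AT3G22235, with AT3G22235 at 3.02 with salt and 7 in control. The largest increases were in AT5G62360, AT5G53490, FLA13, AT1G28620 and AT2G05540. AT5G62360 had a highest reactivity of 5.28 with salt and 2.06 in control, and FLA13, a fasciclin-like arabinogalactan protein of the cell wall, had 4.96 with salt and 2.57 in control. The largest decreases of the standard deviation were in LHCB1.5, LHCB1.2, PSAO, LHCB6 and PCC1, and the largest increases in AT5G62360, FLA13, AT4G29020, AT2G05540 and AT2G47570.

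**Figure D5:**
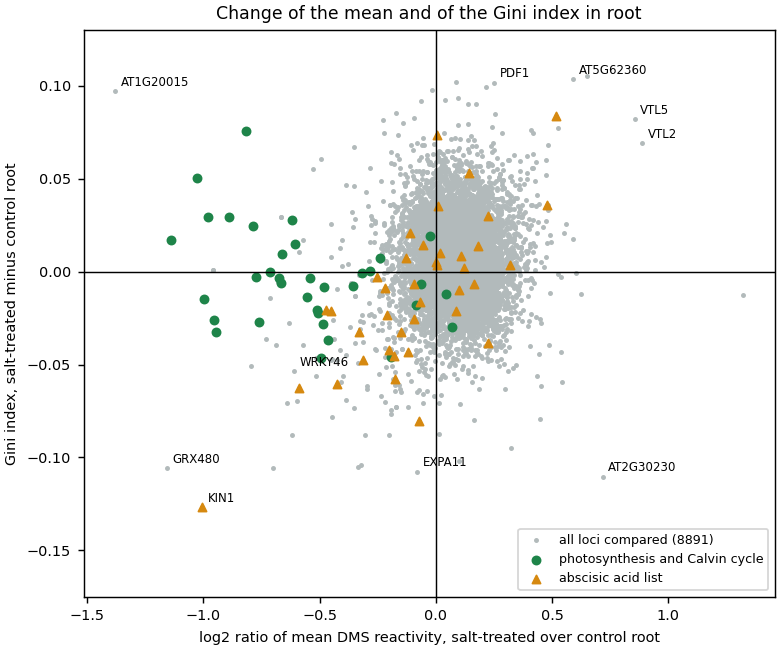
Difference of the Gini index, salt-treated minus control root (vertical axis), against the log2 ratio of mean DMS reactivity, salt-treated over control root (horizontal axis), for 8891 loci with 1 pooled value each. KIN1 and GRX480 lie at the lower left, where both measures were lower with salt, and photosynthesis transcripts at the left spread around 0 on the vertical axis.

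Loci past 1.5-fold were mostly short genes. In the shortest of 5 groups of equal size by gene length, from 79 to 1667 bases of gene span, 7 of 1766 loci were past 1.5-fold upward and 29 downward. In the longest group, from 3758 bases, no locus was past 1.5-fold in either direction, of 1765. The median log2 ratio was 0.10 in the shortest group and 0.07 in the longest. The part of length in these counts was not tested. The Gini index of control root also went with the ratio: loci in the lowest of 5 groups by this index had a median of 0.13 with 92.1% above 0, and those in the highest group had 0.05 with 65.6% above 0. Of the 38 lower loci, 30 were in that highest group. Since control values enter both the index and the ratio, this is given as a description.

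Noncoding RNAs were few but included the lowest ratio of all. AT1G20015, a small nucleolar RNA of a class that guides modification of ribosomal RNA, had a mean reactivity of 0.0910 with salt and 0.237 in control. Its Gini index was 0.960 with salt and 0.863 in control. With a salt value below 0.1, it passed the minimum through its control value. Of 12 such RNAs compared, AT3G50825 and AT2G35387 were among the 15 highest loci at 0.54 and 0.54, and the median was 0.10. These RNAs are very short and mostly lack the poly(A) tail by which the libraries were selected. The 20 loci annotated as other noncoding RNA had a median of 0.16, and the 8747 protein-coding loci a median of 0.09.

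Isoforms of a locus gave similar ratios. At 2817 loci with more than 1 isoform compared, the median range of the log2 ratio between isoforms was 0.02, and no locus had isoforms that differed by 1.5-fold. Isoforms lay on opposite sides of 0 at 149 of these loci. Isoforms share most of their sequence, so their values are not independent. The locus with the highest ratio, AT2G47570, had a log2 ratio of 1.32 for its first isoform and 0.81 for its second, and AT2G26500, a lower locus, ranged between -0.95 and -0.52 over 3 isoforms.

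Because the table holds reactivity and not abundance, markers could be checked only for their presence. All 8891 loci compared also had a shoot value, so genes expressed only in root could be missing for that reason. Presence or absence therefore does not show which cells the root samples held. Of 34 markers of root cell layers, 5 were among the loci compared: SCR of the endodermis, APL and SUC2 of the phloem, and BGLU23 and NAI2 of the endoplasmic reticulum bodies of seedlings and roots. No marker of root hair, suberised cells or root cap was compared. The 5 had log2 ratios of -0.03, 0.11, 0.16, 0.00 and 0.15, none past 1.5-fold. All 7 green shoot markers were compared and all 7 were below 0.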

How the data were processed

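Structure-seq2 libraries were made from salt-treated and control root and shoot, with and without DMS, from poly(A)-selected RNA, per the labels' protocols. The authors deposited 1 table with a mean, a highest value and a standard deviation of DMS reactivity per transcript and condition, read here as a score. The sources used here do not give their normalization. The deposited Gini index is a fraction between 0 and 1, per the file headers and values. The sources used here give no aligner, genome build or read filter, and depth per sample is unknown.

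From these values the log2 ratio of mean reactivity, salt over control, was computed without a pseudocount, and the other measures were subtracted, salt minus control. Loci below a mean of 0.1 were left out. With 1 pooled value per condition, differences were described by size (1.5-fold), counts and medians beside the same over all loci. Names came from RefSeq (TAIR10.1), which held 8829 of the 8891 loci, 99.3%, and listed synonyms were used where more familiar. Named genes were the 15 highest and 15 lowest ratios, the extreme members of each list, 2 at either end (all members of lists under 8), and the 5 largest differences of each other measure in each direction; of the list members the text gives a part. Other names were chosen after values were seen. Roles within the photosynthesis and abscisic acid lists were assigned by hand. The members and lists were chosen with earlier results of these data known, and lists drawn by symbol were cleared of unrelated genes. Near-identical genes such as KIN1 and KIN2 can share reads, and 66 loci had values identical to those of another locus. Calculations were tested on simulated data and made with Python 3.11.15, numpy 2.4.6 and pandas 2.3.3, with figures by matplotlib 3.10.9. Alternatives were other minima, all isoforms, centring, a pseudocount, other fold limits, evenness, repeated values and the upper limit. Apart from the length of the gene span, sequences and coordinates were not used here.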

Additional observations from a re-analysis of the deposited data

Results flagged for a closer look

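Gene lists whose medians lay on opposite sides of 0 in the tissues, both at least 0.1 from 0 on the log2 scale, were singled out. The photosystem, antenna and electron transport list had a median salt log2 ratio of -0.64 in root and 0.13 in shoot, and every one of its 26 members was below 0 in root and above 0 in shoot. The chloroplast-encoded loci had a median of -0.26 in root and 0.10 in shoot, but the root median was 0.01 with a minimum of 0.2, on the same side of 0 as shoot, and -0.05 with identical values counted once. The lignin and phenylpropanoid list had a median of 0.13 in root, where 10 of 13 members were above 0, and -0.12 in shoot, where 2 of 13 were. Over all loci 80.1% were above 0 in root and 37.4% in shoot, so the root count of this list is near that of all loci. With 1 pooled value per tissue and condition, these differences were not tested. Over all compared loci, 54.1% had root and shoot ratios on opposite sides of 0.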

How the results depend on the processing

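No paired analysis was possible because the table holds values pooled over the replicates, so leaving out a replicate and a replicate block were not run. Without the minimum, the count past 1.5-fold was 11 higher and 38 lower. With a minimum of 0.2, the median log2 ratio was 0.0953, the median differences of the Gini index, standard deviation and highest reactivity were 0.00738, 0.0265 and 0.124, and the loci past 1.5-fold were 4 higher and 28 lower. With all isoforms these medians were 0.0912, 0.00817, 0.0236 and 0.108, with 12 higher and 46 lower. Centring set the median to 0 and gave 4 higher and 47 lower, and 80.1% above 0 became 50.0%. It moved the medians of 18 of 52 lists across 0, WRKY, ethylene, heat shock, iron uptake and ion transport lists among them, so their small positive medians hold only without centring. The photosystem and abscisic acid medians stayed below 0 under every alternative run. A pseudocount of 0.1 gave a median of 0.0595 with 1 higher and 17 lower. A lower limit, a log2 ratio of 0.32, gave 223 higher and 94 lower, and a 2-fold limit 1 higher and 5 lower. Counting identical values once gave a median Gini difference of 0.00816 with 36 lower, and leaving out loci at the upper limit of 7, an alternative chosen after seeing the data, gave the same 0.00816 with 8 higher and 30 lower. With a Gini index under 0.9 in both conditions, 8 were higher and 36 lower. A minimum of 0.2 moved the medians of the chloroplast-encoded, mitochondria-encoded and suberin lists across 0, and all isoforms those of the NAC and salicylic acid lists. The causes were not tested. Depth per transcript is unknown, so how far it limits small differences could not be given.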
